A study of Mus musculus with 12 samples.

Results

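The genes described here are 9 transcripts that mark microglia in their resting, or homeostatic, state: P2ry12, P2ry13, Tmem119, Cx3cr1, Sall1, Siglech, Gpr34, Selplg and Olfml3. They were chosen as a named list of markers, and each was compared between APP/PS1 and WT hippocampus and then set against 9 general microglial genes, to see which of them rose by as much as those genes and which by less. All 9 were found among the 55573 genes of the count table, and all 9 passed the expression filter that left 14008 genes for testing. RNA came from the whole right hippocampus of 12 mice on the C57BL/6J background, aged 4.5 months, with 1 library per mouse: in females, 4 APP/PS1 and 2 WT mice, and in males likewise 4 and 2. APP/PS1 mice (APPSwe/Ps1dE9) are double transgenic: prion promoter sequences, which are not specific to microglia, drive APP with the Swedish mutation, partly humanized, together with human presenilin 1 without its exon 9. WT mice are the control genotype of the same strain. Only 2 WT mice of each sex were sequenced, and this sets the precision of every comparison below.

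Microglia are the resident macrophages of the brain. In the healthy brain they keep ramified processes that survey the tissue, and they hold this state under TGF-beta signalling and transcription factors such as Spi1 (PU.1), Mef2c, Smad3 and Sall1. In mice with amyloid plaques, microglia multiply and gather around the plaques, where they switch on a set of lysosomal, lipid-handling and phagocytic genes and lower several homeostatic genes. In RNA from a whole tissue, a marker can thus move with the number of microglia, with its level in each cell, or with both. Bulk libraries cannot tell fewer cells from less RNA per cell.

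In the hippocampal libraries, neuronal transcripts were abundant throughout, and Prox1, a transcription factor of dentate granule neurons, lay between 87.3 and 134 CPM (read counts divided by the scaled size of the library, with upper-quartile factors). Total counts per library ranged from 36714316 to 50643565. In all, 3 libraries stood apart from the rest: WT female 2, APP/PS1 female 1 and also APP/PS1 male 2 held between 3530 and 6360 CPM of Ttr, the thyroxine carrier made by choroid plexus, against 2.69 to 18.3 CPM in the other 9. The 9 homeostatic genes summed to between 257 and 360 CPM in APP/PS1 mice and to between 171 and 214 CPM in WT mice. Markers of border macrophages, which share some genes with microglia, summed to 29.0 to 42.3 CPM in APP/PS1 and 35.0 to 45.6 CPM in WT, and 0 of the 5 tested of 10 were called by edgeR's quasi-likelihood test, with 1, Cd163, lower at an unadjusted p under 0.05. A further library, WT male 2, stood apart by other genes. The neutrophil genes S100a8 and S100a9 had 175 and 199 counts there, against at most 12 and 38 in the other 11 libraries. Selp, the endothelial and platelet P-selectin that binds the product of Selplg, had 46 counts against at most 5, and Ly6c1, an endothelial marker, was at 50.6 CPM against 22.8 to 33.2 CPM. The same library had 86.7 CPM of C1qa, against 46.2 to 53.1 CPM in the other WT animals. What part this library's blood and vessel transcripts had in the results below was not tested. Log ratios of several genes are also given without it, while the reference level and the log2 fold changes in males are given only with it. The 12 blood leukocyte markers summed to 4.66 to 12.2 CPM in APP/PS1 and 3.84 to 10.3 CPM in WT, with the WT maximum in WT male 2. The T cell marker Cd3e had at most 5 counts and the B cell marker Ms4a1 at most 2 counts in any library, and 1 of the 12 could be tested. That gene was Bst2, an interferon-induced membrane protein that microglia also make, with a log2 fold change of 0.88 (SE 0.144, FDR 0.0109).

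The promoters of these genes are shown before their values, since all 9 are markers of 1 cell type. RefSeq promoter windows of GRCm38.p6, each with 250 bases before and 50 bases after a transcription start, were at hand for 6 of the 9 genes, in 8 windows. They were searched on both strands for the purine box of PU.1 (GAGGAA), for the SMAD box (CAGAC) and for the MEF2 motif. The 4 windows below belong to the ADP receptor pair, to Siglech and to Sall1. Only Sall1 has more than 1 of the 8 windows, and the window printed is the only Sall1 window with a SMAD box. Capitals mark the purine box on either strand, written as TTCCTC where it lies on the opposite strand. The P2ry12 window is chr3:59262936-59263235 on the minus strand, the P2ry13 window is chr3:59210833-59211132 on the minus strand, the Siglech window is chr7:55767934-55768233 on the plus strand and the Sall1 window is chr8:89044113-89044412 on the minus strand.
P2ry12: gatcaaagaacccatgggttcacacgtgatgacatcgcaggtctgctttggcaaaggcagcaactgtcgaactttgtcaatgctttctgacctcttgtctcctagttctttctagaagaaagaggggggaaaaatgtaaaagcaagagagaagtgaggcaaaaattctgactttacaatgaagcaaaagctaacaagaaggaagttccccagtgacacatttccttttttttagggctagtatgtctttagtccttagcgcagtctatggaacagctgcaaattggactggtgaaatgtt
P2ry13: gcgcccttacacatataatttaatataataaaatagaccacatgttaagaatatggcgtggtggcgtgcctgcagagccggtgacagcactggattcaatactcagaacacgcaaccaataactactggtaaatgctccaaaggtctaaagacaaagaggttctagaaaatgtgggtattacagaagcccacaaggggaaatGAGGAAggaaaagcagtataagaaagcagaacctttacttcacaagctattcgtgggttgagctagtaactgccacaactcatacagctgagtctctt
Siglech: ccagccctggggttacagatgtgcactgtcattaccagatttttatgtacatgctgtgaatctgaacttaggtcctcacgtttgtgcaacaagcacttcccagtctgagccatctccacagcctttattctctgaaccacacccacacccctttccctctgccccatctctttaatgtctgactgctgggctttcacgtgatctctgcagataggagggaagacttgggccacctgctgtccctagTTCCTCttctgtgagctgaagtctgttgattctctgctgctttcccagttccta
Sall1: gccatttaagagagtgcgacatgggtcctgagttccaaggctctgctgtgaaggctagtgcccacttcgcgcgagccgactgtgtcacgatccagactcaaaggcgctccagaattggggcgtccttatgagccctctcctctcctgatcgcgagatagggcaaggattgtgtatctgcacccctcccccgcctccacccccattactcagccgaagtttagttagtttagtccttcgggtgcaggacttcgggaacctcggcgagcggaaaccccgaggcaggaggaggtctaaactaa
The purine box was in 2 of the 8 windows, those of P2ry13 and Siglech, against 28.3% of all 32851 promoter windows. The SMAD box was in 4 of the 8, against 49.6% of all windows. The MEF2 motif was in 0 of the 8, against 3.19% of all windows. These counts describe letters in the windows, and a match or its absence says nothing about binding.

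The genes lie in 7 places on 6 chromosomes if neighbours are counted together (GENCODE M21, GRCm38). P2ry12 (chr3:59216272-59262871) and P2ry13 (chr3:59207892-59210882) are 5389 bases apart on the minus strand, and both lie inside Med12l, which is read from the opposite strand. Olfml3 (chr3:103722222-103738001) is elsewhere on the same chromosome. Tmem119 (chr5:113793729-113800516) and Selplg (chr5:113818536-113832644) are neighbours on the minus strand, 18019 bases apart. Gpr34 (chrX:13632089-13640858) lies inside Cask on the opposite strand, Cx3cr1 is at chr9:119901616-120069879, Sall1 at chr8:89027235-89044162 and Siglech at chr7:55768178-55778925. The strand setting of the authors' counting is not given in the sources used here, so the host genes were checked. Med12l had a log2 fold change of 0.03 (FDR 0.885) and Cask of 0.02 (FDR 0.942), and 0 of the 4 tested of 7 host and neighbour genes were called by edgeR's quasi-likelihood test, with 0 at an unadjusted p under 0.05. Exon bases shared with an opposite-strand gene were 9 for P2ry12 (with Med12l) and 1.73% of the exon length for Cx3cr1, and Gpr34 and P2ry13 shared none. The other tested neighbours of the P2ry genes were P2ry14, at -0.01 (FDR 0.995), and Igsf10, at 0.12 (FDR 0.828). Gpr171 and Gpr82, which were not tested, had at most 8 and 7 counts in any library.

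In WT hippocampus, with counts scaled per kilobase of annotated exon (RPKM), P2ry12 was the highest of the 9 at 12.6 ± 2.78 RPKM (SD, n = 4). Tmem119 followed at 9.48 ± 0.749 and Cx3cr1 at 9.32 ± 1.06 RPKM, and the ranges of neighbours in this order met or overlapped. Selplg stood at 6.02 ± 0.220, Gpr34 at 5.07 ± 1.72 and Siglech at 4.31 ± 0.730 RPKM. Between Cx3cr1 (7.72 RPKM or more) and Selplg (6.30 RPKM or less) lay the only gap of the order, and all later neighbours overlapped. The lowest were P2ry13 at 3.78 ± 0.333, Sall1 at 3.37 ± 0.188 and Olfml3 at 3.04 ± 0.326 RPKM. Exon length in the annotation, which merges all isoforms of a gene, enters these values directly. In APP/PS1 mice (n = 8) the order changed below the top: P2ry12 was at 19.4 ± 2.56 and Cx3cr1 at 14.8 ± 2.83 RPKM, while Tmem119 (11.3 ± 1.46 RPKM) and Gpr34 (11.1 ± 2.15 RPKM) stood level.

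With both sexes averaged, 7 of the 9 homeostatic genes rose in APP/PS1 hippocampus: Gpr34, Siglech, P2ry13, P2ry12, Olfml3, Selplg and Sall1. Over all genes tested, 1.69% were called higher, at a false discovery rate (FDR) under 0.1 by edgeR's quasi-likelihood test. Cx3cr1 and Tmem119 were also higher on average but did not pass. The fitted log2 fold changes of the 9 ran from 0.26 to 1.05 with a median of 0.66, where the median of all genes was 0.01. At an unadjusted p under 0.05, all 9 were higher, against 6.15% of all genes. In 8 of the 9, every APP/PS1 animal lay above every WT animal, a pattern that 1.31% of all genes had. Tmem119 was the exception.

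**Figure D1:**
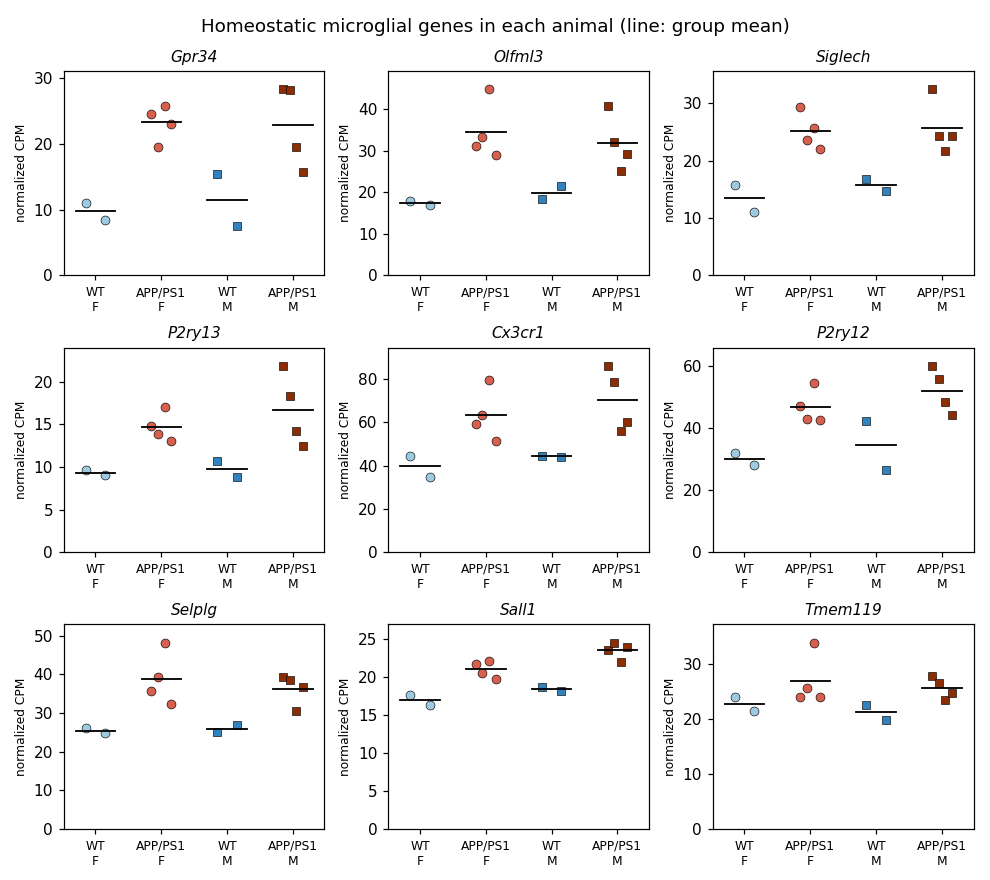
Each panel plots normalized CPM (y axis, from 0) in each of the 12 animals for a homeostatic gene, by genotype and sex, with a line at the group mean; panels run from the highest to the lowest log2 fold change. Gpr34 sits at 15.8 to 28.3 CPM in APP/PS1 and 7.47 to 15.5 CPM in WT, while Tmem119, in the last panel, spans 23.5 to 33.8 and 19.9 to 24.0 CPM, with overlap.

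Among the receptors that sense nucleotides and lipids, P2ry12, the ADP receptor that steers microglial processes toward injured cells, was measured at 47.1, 42.9, 54.3 and 42.4 CPM in the APP/PS1 females and 31.8 and 28.0 CPM in the WT females. In males it was at 59.8, 55.6, 48.2 and 44.1 CPM in APP/PS1 and 42.2 and 26.5 CPM in WT. The lowest APP/PS1 animal and the highest WT animal, WT male 1, nearly touched. The averaged log2 fold change was 0.59 (SE 0.129, FDR 0.0809), or 1.5-fold.

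P2ry13, the second ADP receptor of the pair, ran from 12.4 to 21.8 CPM in APP/PS1 (median 14.5, n = 8) and was at 9.63, 9.02, 10.7 and 8.83 CPM in the WT animals. No values overlapped, and the WT animals lay close together. It rose by a log2 fold change of 0.67 (SE 0.139, FDR 0.0472).

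Gpr34, a receptor for lysophosphatidylserine, had the largest difference of the 9. It was at 24.6, 19.6, 25.8 and 23.1 CPM in the APP/PS1 females and 28.3, 28.2, 19.5 and 15.8 CPM in the APP/PS1 males, against 11.0 and 8.45 CPM in the WT females and 15.5 and 7.47 CPM in the WT males. WT male 1, at 15.5 CPM, came close to APP/PS1 male 4, at 15.8 CPM. The log2 fold change was 1.05 (SE 0.185, FDR 0.0364), or 2.07-fold, and Gpr34 was also the most variable of the 9 within groups, with an SD of 0.391 on the log2 scale.

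Cx3cr1, the receptor for the neuronal chemokine fractalkine, was at 59.4, 63.3, 79.6 and 51.4 CPM in the APP/PS1 females, against 44.5 and 34.8 CPM in the WT females. In males it was at 86.0, 78.5, 55.9 and 60.2 CPM in APP/PS1 and 44.7 and 43.9 CPM in WT. Every APP/PS1 animal exceeded every WT animal. The log2 fold change of 0.66 (SE 0.172) had an unadjusted p of 0.00511 and an FDR of 0.193, so it did not pass over all genes. Its ligand Cx3cl1 had a log2 fold change of -0.06 (FDR 0.752).

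Siglech, a lectin-like receptor of the Siglec family, was at 15.7 and 11.1 CPM in the WT females, 16.8 and 14.7 CPM in the WT males, and 21.6 to 32.4 CPM in APP/PS1 mice (median 24.2). The gap between the genotypes was wide for these data, with 16.8 CPM the highest WT value. It rose by 0.81 on the log2 scale (SE 0.142, FDR 0.0289), or 1.75-fold.

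Selplg, the P-selectin ligand PSGL-1, varied little among the WT animals, at 26.0, 24.9, 25.0 and 26.9 CPM, and ran from 30.4 to 48.1 CPM in APP/PS1 mice (median 37.7). Its log2 fold change was 0.56 (SE 0.107, FDR 0.0350). Olfml3, a secreted glycoprotein of the olfactomedin family, was at 17.9, 17.0, 18.3 and 21.6 CPM in WT and 25.1 to 44.8 CPM in APP/PS1 (median 31.6), with a log2 fold change of 0.83 (SE 0.166, FDR 0.0590). In both genes the genotypes were separated.

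Sall1, the zinc-finger repressor that keeps microglial identity, had the smallest rise among the genes that passed and the tightest values. It was at 21.7, 20.6, 22.1 and 19.7 CPM in the APP/PS1 females, 23.6, 24.5, 22.0 and 24.0 CPM in the APP/PS1 males, 17.7 and 16.4 CPM in the WT females and 18.7 and 18.2 CPM in the WT males. The log2 fold change was 0.33 (SE 0.0596), or 1.26-fold, and its FDR of 0.0179 was the lowest of the 9. Its within-group SD of 0.0678 on the log2 scale was also the lowest.

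Tmem119, a transmembrane protein used as a marker because blood macrophages lack it, differed least. It was at 24.0, 25.7, 33.8 and 24.0 CPM in the APP/PS1 females, 27.8, 26.5, 23.5 and 24.7 CPM in the APP/PS1 males, 24.0 and 21.4 CPM in the WT females and 22.5 and 19.9 CPM in the WT males. Only 6 of the 8 APP/PS1 animals lay above the highest WT animal, WT female 1. The log2 fold change was 0.26 (SE 0.0975, unadjusted p = 0.0225, FDR 0.393), or 1.19-fold.

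The direction was the same for all 9 genes in every alternative that was run, but the number called moved with the settings and with the animals included. It was 8 with the likelihood ratio test and 8 with DESeq2, and 1 without the 3 Ttr-rich libraries and without RUV factors, where 8 of the 9 still had an unadjusted p under 0.05. Leaving out single animals gave 0 without WT female 2 (8 of 9 at an unadjusted p under 0.05), 2 without WT male 2, 3 without WT female 1, and 4 when either APP/PS1 female 2 or APP/PS1 male 2 was removed. Without a filter on low counts (33621 genes tested, 322 of them called), 2 passed, Selplg and Sall1.

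The 9 general microglial genes used for comparison, which microglia express in most states, included Aif1, Csf1r, C1qa, C1qb, C1qc, Itgam, Laptm5 and Spi1. In the same averaged contrast, 6 of these 9 rose, and their median log2 fold change was 0.84. Laptm5, a lysosomal membrane protein, was at 0.99 (FDR 0.0237), Spi1, the gene of PU.1, at 0.79 (FDR 0.0631) and Aif1, the gene of IBA1, at 0.77 (FDR 0.0856). Csf1r, the receptor that microglia need to survive, was at 0.58 (FDR 0.0771) and Itgam, the integrin chain CD11b, at 0.49 (FDR 0.0735). The 3 complement C1q genes had values of 0.85 (C1qa, FDR 0.331), 0.95 (C1qb, FDR 0.429) and 0.84 (C1qc, FDR 0.381) and did not pass. In the annotation, Itgam shares 68.7% of its exon bases with Gm49368 on the same strand. The homeostatic genes thus spanned a range of 0.26 to 1.05 around a reference that itself spanned 0.49 to 0.99.

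**Figure D2:**
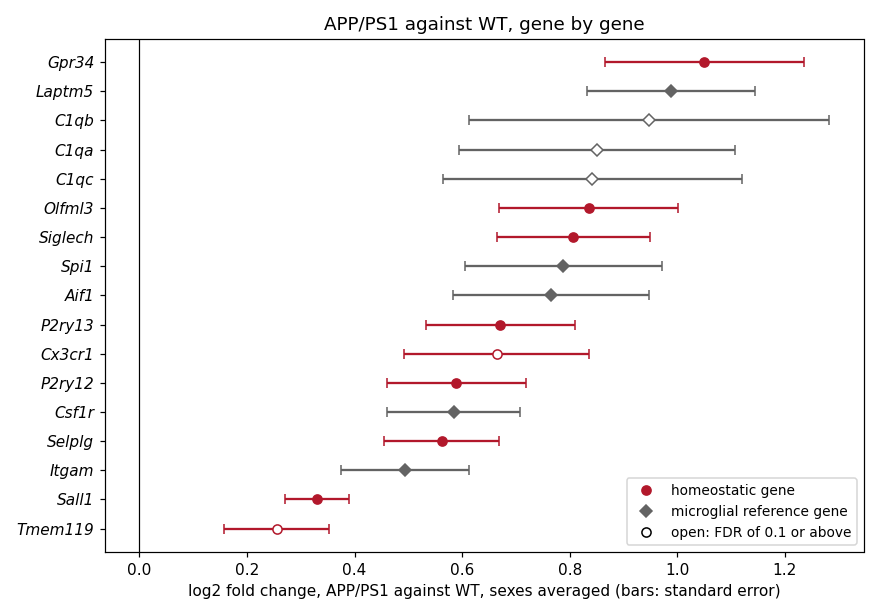
Log2 fold change of APP/PS1 against WT with both sexes averaged (x axis) for the 9 homeostatic genes (circles) and 8 of the reference genes (diamonds), with standard errors; filled symbols have an FDR under 0.1. Gpr34 at 1.05 tops the plot, and Sall1 at 0.33 and Tmem119 at 0.26 lie below every reference gene shown.

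For each animal, the mean log2 CPM of the 9 reference genes was taken as its microglial reference level. It was 5.28 ± 0.268 (SD, n = 8) in APP/PS1 mice and 4.48 ± 0.199 (SD, n = 4) in WT mice, a difference of 0.80 or 1.74-fold (two-sided exact permutation test over all 495 splits of 12 animals into 8 and 4, p = 0.00202, the smallest p that this design allows). The APP/PS1 animals ran from 4.91 to 5.63 and the WT animals from 4.34 to 4.77, without overlap. Whether the reference genes themselves changed in level per cell was not tested, so this level is not a count of microglia. Each homeostatic gene was then expressed as a log2 ratio to this reference level in the same animal. A gene that rose by as much as the reference has a difference of 0.

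By this measure the 9 genes spread out in order. Tmem119 and Sall1 lagged behind the reference, Selplg did so less firmly, P2ry12, Cx3cr1 and P2ry13 lay slightly below it without passing the test, Siglech and Olfml3 lay at it, and Gpr34 lay above it without passing the test. No p was adjusted over these 9 comparisons. A gene made in part by other cells of the hippocampus can also have a lower ratio here, and such shares were not measured.

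Tmem119 had log2 ratios of 0.17 and 0.08 in the WT females, 0.11 and -0.46 in the WT males, -0.82, -0.36, -0.55 and -0.52 in the APP/PS1 females and -0.77, -0.71, -0.36 and -0.47 in the APP/PS1 males. Of the 4 WT animals, 3 lay above all APP/PS1 animals, and WT male 2 lay among them. Without WT male 2 the difference was -0.69 (exact permutation p = 0.00606, the smallest p possible with that animal removed). With all animals, the APP/PS1 mean was 68.6% of the WT level (log2 difference -0.54, exact permutation p = 0.00606). It stayed below 0.05 in each of the 25 alternatives run, at 0.00202 to 0.0357, which included the splits within sex (exact permutation p = 0.00889), other choices of reference genes and the removal of each animal.

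Sall1 was at -0.28 and -0.30 in the WT females, -0.16 and -0.59 in the WT males, -0.96, -0.68, -1.16 and -0.80 in the APP/PS1 females and -1.01, -0.82, -0.45 and -0.52 in the APP/PS1 males. The 4 APP/PS1 females were below all WT animals, while APP/PS1 males 3 and 4 reached into the WT range through WT male 2. The APP/PS1 mean was 72.2% of WT (log2 difference -0.47, exact permutation p = 0.0101). Without WT male 2 the difference was -0.56 (exact permutation p = 0.00606, the smallest p possible with that animal removed). It passed in 24 of 25 alternatives, the exception being the removal of the 3 Ttr-rich libraries (exact permutation p = 0.0714). Within groups, Sall1 had an SD of 0.0678 on the log2 scale, where the other homeostatic genes had 0.169 to 0.391. What share of its RNA came from cells other than microglia was not tested, so the lag is not shown to lie in microglia.

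Selplg stood at 83.5% of the WT ratio (log2 difference -0.26, exact permutation p = 0.0364), with APP/PS1 animals from -0.28 to 0.25 and WT animals from -0.02 to 0.30. The ranges overlapped broadly, and the p rose above 0.05 in 13 of 25 alternatives, up to 0.202. Without WT male 2 the difference of Selplg was -0.34 (exact permutation p = 0.0121). P2ry12 was at 89.3% (-0.16, exact permutation p = 0.370), Cx3cr1 at 90.7% (-0.14, exact permutation p = 0.220) and P2ry13 at 93.3% (-0.10, exact permutation p = 0.448). A p above the threshold does not show that these genes rose by as much as the reference. Without WT male 2, the differences were -0.21 for Cx3cr1 and -0.24 for P2ry13. For P2ry12 the WT males set the uncertainty, with ratios of 1.02 and -0.05, the highest and the lowest of all 12 animals: the difference was 0.01 without WT male 1 and -0.35 (exact permutation p = 0.0364) without WT male 2.

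Siglech was at 100% of the WT ratio (log2 difference 0.01, exact permutation p = 0.966) and Olfml3 at 101% (0.01, exact permutation p = 0.887). Olfml3 was the steadiest of the 9 on this scale among the WT animals, with ratios of -0.26, -0.25, -0.19 and -0.34. Gpr34 was at 128% (0.36, exact permutation p = 0.131), with APP/PS1 ratios between -1.12 and -0.57 and WT ratios of -0.96, -1.26, -0.43 and -1.87. Here too WT males 1 and 2 were the extremes of all 12 animals. Without WT male 1 the difference was 0.59 (exact permutation p = 0.0121), without WT male 2 it was 0.11 (exact permutation p = 0.515), and with Aif1 alone as the reference it was 0.39 (exact permutation p = 0.0303).

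**Figure D3:**
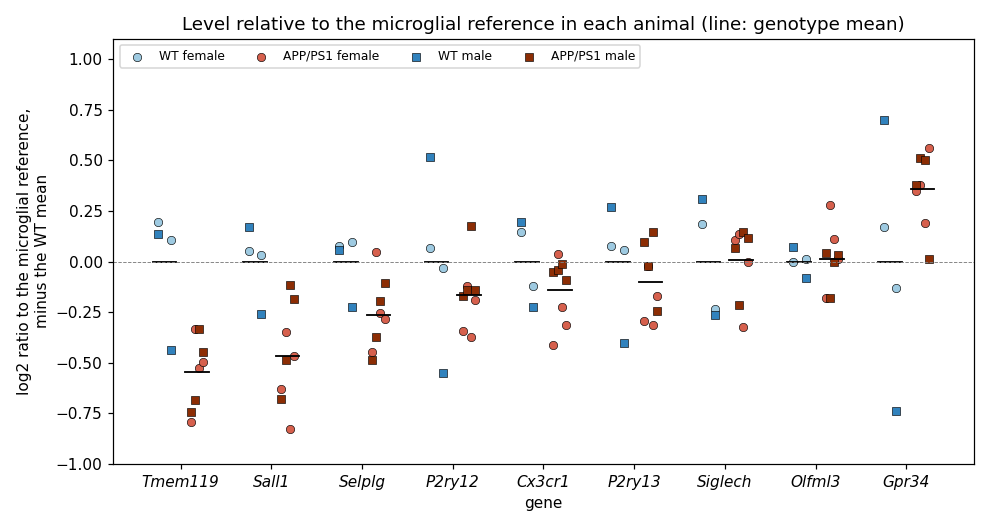
Log2 ratio of each homeostatic gene to the mean of the 9 reference genes in each of the 12 animals, with the WT mean of the gene set to 0 (y axis) and lines at the genotype means. Tmem119 and Sall1 lie at -0.54 and -0.47 in APP/PS1, Siglech and Olfml3 at 0.01 and Gpr34 at 0.36, and WT male 2 falls among the APP/PS1 animals for Tmem119.

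The same question was put to the whole table by scaling each library to the reference genes in place of the upper quartile. In that fit 97.1% of all genes were called lower and 0.293% higher, since most transcripts of the hippocampus did not rise with the microglial reference. Tmem119 (log2 fold change -0.55, SE 0.204, FDR 0.00807) and Sall1 (-0.45, SE 0.206, FDR 0.0288) were called lower, and the other 7 homeostatic genes were called in neither direction. Of these 7, Selplg was at -0.24 (FDR 0.255), P2ry12 at -0.22 (FDR 0.275), Gpr34 at 0.23 (FDR 0.279) and the remaining 4 between -0.14 and 0.03. With a standard error near 0.2 for each gene, a shortfall of this size could not be told from 0. The reference genes themselves ran from -0.29 (Itgam) to 0.20 (Laptm5) in this fit. Without WT male 1, Tmem119 (-0.37, FDR 0.124) and Sall1 (-0.32, FDR 0.190) no longer passed and Gpr34 was called higher (0.66, FDR 0.0165). Without WT male 2, Tmem119 (-0.67, FDR 0.00398), Sall1 (-0.55, FDR 0.0175) and P2ry12 (-0.42, FDR 0.0695) were called lower, and Gpr34 was at -0.01 (FDR 0.953).

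Gpr34 and Tmem119, at the ends of the order and chosen after their values were seen, can be set against each other within each library, where scaling has no part. The log2 ratio of Gpr34 to Tmem119 counts was -0.65 to 0.09 in APP/PS1 animals and -1.41 to -0.54 in WT animals, with means of -0.20 and -1.11. The ranges overlapped slightly, and the choice of the pair allows no test.

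In females alone the log2 fold changes were 1.14 for Gpr34, 0.98 for Olfml3, 0.90 for Siglech, 0.66 for Cx3cr1, 0.64 for Selplg, 0.61 for P2ry13, 0.59 for P2ry12, 0.32 for Sall1 and 0.21 for Tmem119. In males they were 0.96 for Gpr34, 0.74 for P2ry13, 0.71 for Siglech, 0.69 for Olfml3, 0.66 for Cx3cr1, 0.59 for P2ry12, 0.49 for Selplg, 0.34 for Sall1 and 0.30 for Tmem119. Sall1 and Tmem119 were thus lowest in each sex. By edgeR's quasi-likelihood test 0 of the 9 were called in females (0.7% of all genes were called higher) and 0 in males (0.157% of all genes), while 8 of 9 in each sex had an unadjusted p under 0.05 (6.11% and 3.2% of all genes). The likelihood ratio test called 4 in females and 3 in males, and DESeq2 called 6 in each. The share of all genes that these 2 tests called in each sex is not given here. With both sexes averaged they called 382 and 386 genes in all, against 258 by the quasi-likelihood test. With 2 WT animals per sex, removing APP/PS1 female 4 brought the counts to 4 in females and 1 in males. In females the count became 2 when APP/PS1 male 1 was left out and 1 when either WT male was. All 4 APP/PS1 animals lay above both WT animals in 8 of the 9 genes in females (12.5% of all genes) and in 9 of the 9 in males (6.5% of all genes).

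No difference between the sexes was detected in these genes. The interaction, the female minus the male log2 fold change, lay between -0.13 and 0.29 with standard errors of 0.121 to 0.369, and 0 of the 9 were called, with 0 at an unadjusted p under 0.05 (smallest p 0.398, all FDR at least 0.998), where 0% and 3.57% of all genes were. The likelihood ratio test and DESeq2 also called 0. The widest interaction standard errors exceed the differences themselves, so a sex difference of that size would not have been detectable. Within APP/PS1 mice the female minus male log2 differences were -0.16 to 0.12, with 0 of the 9 called (0.0857% of all genes) and 1 at an unadjusted p under 0.05 (5.32% of all genes). Within WT mice they were -0.22 to 0.15, with 0 called (0.05% of all genes) and 0 under that p (4.47% of all genes). Relative to the reference, the lag of Tmem119 was -0.68 in females and -0.40 in males, and that of Sall1 was -0.61 and -0.33. The log ratios of WT males 1 and 2 lay apart, at 0.11 and -0.46 for Tmem119 and -0.16 and -0.59 for Sall1. The APP/PS1 means were -0.56 in females and -0.58 in males for Tmem119, and -0.90 and -0.70 for Sall1. The WT female means were 0.12 for Tmem119 and -0.29 for Sall1, closer to WT male 1 than to WT male 2 in both genes. The male lags, and their distance from the female lags, thus depend on WT male 2, and they were not computed without it. In the fit over the whole table, scaled to the reference, the sex difference of the lag was -0.38 for Tmem119 (SE 0.437) and -0.32 for Sall1 (SE 0.436), with an FDR of 0.857 for both.

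**Figure D4:**
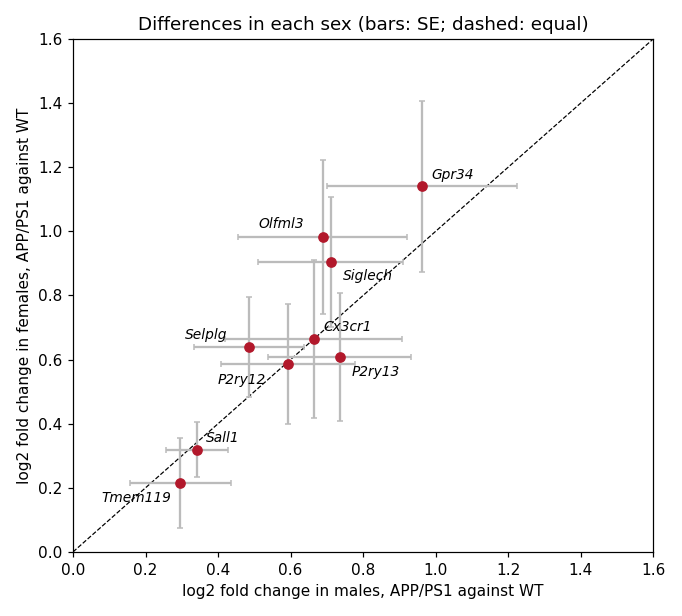
Log2 fold change of APP/PS1 against WT in males (x axis) and in females (y axis) for the 9 homeostatic genes, with standard errors; the dashed line marks equal values. Gpr34 is highest in both sexes (0.96 and 1.14), Tmem119 is lowest in both (0.30 and 0.21), and the error bars of all 9 genes are wide against their distance from the line.

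The other genes of the homeostatic state were less uniform than the 9. Of 14 listed, 12 could be tested, 3 rose and 0 fell by the quasi-likelihood test (2 were lower at an unadjusted p under 0.05), and the median log2 fold change was 0.29. Lag3, an inhibitory receptor, rose by 1.30 (FDR 0.00178), Hpgds, a prostaglandin D synthase, by 0.77 (FDR 0.0543), and Slco2b1, an organic anion transporter, by 0.41 (FDR 0.0620). Relative to the reference, 9 of the 12 were called lower and 1, Lag3, higher, against 97.1% and 0.293% of all genes. Several of the 14, among them Cst3, Rhob, Gpr155 and Mertk, are also made by other cells of the hippocampus, and their levels are not a measure of microglia alone.

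The genes that microglia switch on at plaques covered a wider range, from 0.01 to 7.04. Of 25 listed, 23 could be tested, 17 rose and 0 fell by the same test (0 were lower at an unadjusted p under 0.05), with a median log2 fold change of 1.01. Cst7, an inhibitor of lysosomal cathepsins, had 6.04 to 14.9 CPM in APP/PS1 and 0.0263 to 0.106 CPM in WT animals, and a log2 fold change of 7.04. Itgax, the integrin chain CD11c, rose by 4.05, Ccl6, a chemokine, by 2.94, and Cd84, a receptor of the SLAM family, by 1.58. At the other end, Ank (0.01), Ctsb (0.20), Gpnmb (0.21), Spp1 (0.22) and Csf1 (0.23) did not pass and had log2 fold changes below those of all 9 homeostatic genes. Relative to the reference, 9 of the 23 were called higher and 8 lower, against 0.293% and 97.1% of all genes. The 9 homeostatic genes had 0 higher and 2 lower. A gene made mainly by other cells of the hippocampus can be called lower in this fit, so the 8 are not shown to lag in microglia.

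Among the ligands and signalling partners of the homeostatic genes, 13 of 14 could be tested, 2 rose and 0 fell (1, Smad3, was lower at an unadjusted p under 0.05), with a median of 0.16. Tgfb1, the gene of the ligand that maintains the homeostatic state, rose by 0.73 on the log2 scale (SE 0.150, FDR 0.0364), and Tgfbr1, its type I receptor, rose by 0.64 (SE 0.110, FDR 0.0237). These values lie within the range of the 9 homeostatic genes. Among markers of other brain cells, 0 of 8 neuronal, 0 of 6 oligodendrocyte, 0 of 6 endothelial and 0 of 8 choroid plexus genes were called by edgeR's quasi-likelihood test, with 2, 1, 1 and 2 of them at an unadjusted p under 0.05. Of 6 astrocyte genes, 1 was called: Gfap, the intermediate filament of reactive astrocytes, rose by 1.06 (FDR 0.0133).

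Within groups, the 9 genes were positively correlated from animal to animal, though pairs of other genes were not compared. After each of the 4 group means was subtracted from log2 CPM, the Pearson correlation between pairs of the 9 ranged from 0.17 to 0.94 over the 12 animals, with a median of 0.65, and 27 of the 36 pairs were above 0.5. Cx3cr1 followed the mean of the other 8 most closely (0.91) and Selplg least (0.65). Of the tested genes outside the list, the 5 most like the mean of the 9 were Pink1 (0.957), Slc14a1 (0.942), Aif1 (0.922), Exd1 (0.919) and Oxsm (0.892). They are the highest of the 14008 genes tested, over 12 animals whose values share a library and its scaling, and are given as a description. The reference genes ran from 0.458 (Csf1r, rank 1615) to 0.922 (Aif1, rank 3), with Spi1 at 0.75 and C1qa at 0.475.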

How the data were processed

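Libraries of poly-A RNA from 12 whole right hippocampi were sequenced as directional paired-end reads. Per the labels and the study's methods, reads went through Trimmomatic, were placed on GRCm38 by STAR and were assigned to Ensembl genes by HTSeq, and the authors deposited the raw counts, which are not normalized. Versions, annotation release and strand option are not given in the sources used here. Of the 55573 genes, 21952 had no count, and 55394 identifiers matched a GENCODE M21 symbol. Total counts were 36714316 to 50643565 per library, so the spread between animals limits precision more than counting error does. Within groups, pairs of libraries differed by more than sampling noise (chi-square per degree of freedom 15.5 to 73 over 14 pairs).

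Here, 14008 genes that reached a log2 CPM of 1 or more in 3 or more libraries were tested by edgeR's quasi-likelihood test (edgeR 4.0.16, limma 3.58.1, R 4.3.3) in a single model of all 12 libraries, with upper-quartile scaling and 2 RUV factors. These factors were computed by a re-implementation of RUVg whose control genes left out the 5000 that differed most among the groups in a preliminary fit. P-values were two-sided, Benjamini-Hochberg adjustment covered every tested gene, and an FDR under 0.1 made a call. In a second fit each library was scaled to the geometric mean of the 9 reference genes (pseudocount 0.5), with the same RUV factors. Log ratios per animal, with no pseudocount and no RUV factors, were tested by exact permutation. The fitting steps were tested on simulated data. Alternatives were the likelihood ratio test, DESeq2 1.42.0, other scalings, filters, RUV settings, reference genes and thresholds, a replicate block, and the removal of each animal or of the 3 libraries with over 1000 CPM of Ttr.

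The homeostatic genes and all other lists were chosen with earlier results of these data known. Genes named are all homeostatic, reference, host and neighbour genes (1 reference gene and 1 neighbour gene, which enter the counts and the reference level, are not reported here), the called genes of the other lists (at most 4 per list with the smallest p), and the 5 tested genes most correlated with the mean of the 9. Cx3cl1, Prox1, Ttr, S100a8, S100a9, Selp, Ly6c1, Ank, Ctsb, Gpnmb, Spp1, Csf1, Cd163, Smad3, Cd3e, Ms4a1, Cst3, Rhob, Gpr155 and Mertk are named outside this rule, as a ligand, checks, exceptions or background. No set test was run.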

Additional observations from a re-analysis of the deposited data

Results flagged for a closer look

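In the 4 APP/PS1 males, the log2 ratio of P2ry12 to the microglial reference was 0.68 in APP/PS1 male 3 and between 0.33 and 0.36 in the other 3, so that the gap took up 0.914 of the group's range (Dixon's 95% limit for 4 samples is 0.829). It was the only such value among 36 checked (9 genes in each of the APP/PS1 groups, as normalized CPM and as the ratio), where chance gives about 1 in 20. The same animal had the lowest reference level of the APP/PS1 mice, 4.91, and a P2ry12 level of 48.2 CPM, inside the range of its group.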

How the results depend on the processing

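With only 2 WT animals per sex, the calls of single genes depend on the settings more than their values do. Over 45 values of single genes and 1206 alternatives, 1062 kept direction and side of the threshold, 64 lost a call, 50 gained a call and 30 changed sign. The averaged log2 fold changes of all 9 genes stayed above 0 in all alternatives. Of the 9, the number called with both sexes averaged was 7, and it was 2 with no filter on low counts, 1 without the 3 choroid plexus-rich libraries and without RUV factors, and 0 to 8 when single animals were left out. All genes called numbered 258, and 382 with the likelihood ratio test, 386 with DESeq2, 173 without RUV factors, 66 without the 3 libraries and without RUV factors, 148 without WT female 1, 139 without WT female 2, 169 without WT male 2 and 153 on removal of APP/PS1 male 2. The number called in females was 0, and it was 4 with the likelihood ratio test, 6 with DESeq2, 1 with no filter, 2 without RUV factors, 1 with 1 RUV factor, 4 in that sex alone without RUV factors, and 0 to 4 when single animals were left out. In males it was 0, and 3 with the likelihood ratio test, 6 with DESeq2 and 0 to 1 when single animals were left out. The number called relative to the reference was 2, and it was 1 without the 3 libraries and without RUV factors and 1 to 3 when single animals were left out. The number of log ratios per animal with a permutation p under 0.05 was 3, and it was 1 without the 3 libraries and 2 to 4 when single animals were left out. The cause of these moves was not tested, and the shares of all genes called in each sex are not given for these alternatives. With no filter, the FDR moved both ways, lower for Selplg and higher for Gpr34, and 322 genes were called in all.

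Values that changed sign were those of Siglech and Olfml3, near 0, and those of P2ry12, P2ry13 and Gpr34, which lay further from it. In the fit relative to the reference, Siglech (0.01) was -0.01 without RUV factors, -0.08 without both the 3 libraries and RUV factors, -0.02 with a reference lacking Csf1r, -0.03 with one lacking Itgam and -0.12 to 0.19 when single animals were left out, and Olfml3 (0.03) was -0.01 with a reference lacking Itgam and -0.03 to 0.08 without single animals. With single animals left out, P2ry12 (-0.22) ranged from -0.42 to 0.11, P2ry13 (-0.14) from -0.27 to 0.05 and Gpr34 (0.23) from -0.01 to 0.66. In the log ratios per animal, Siglech (0.01) was -0.03 with a reference lacking Csf1r, -0.03 with one lacking Itgam, -0.05 without the 3 libraries and -0.08 to 0.11 without single animals. Olfml3 (0.01) was -0.02 and -0.03 with those references and -0.02 to 0.04 without single animals, and P2ry12 (-0.16) was -0.35 to 0.01 without single animals.

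Whether the replicate numbers of the labels pair the animals could not be told. Over 14 pairs with the same number in different groups, the correlation of their deviations from the group means ran from -0.673 to 0.732. With 2 WT animals per sex, the deviations of a WT group mirror each other, so these correlations cannot decide it. With the replicate number as a block, the numbers called were 4 with both sexes averaged, 2 in females, 1 in males and 0 relative to the reference, where Tmem119 was at -0.60 (FDR 0.102) and Sall1 at -0.51 (FDR 0.162).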
